A study of Mus musculus with 12 samples.

Results

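Axon guidance genes were followed in mouse hematopoietic stem cells. They were the receptors Neo1, Robo4, Nrp1, Plxnc1 and Plxnb2 and the ligand Sema4d, 6 of 20457 genes measured. Neo1 was chosen on its own measured level, which was lower in IL27RA+ cells, so its values between the sorted fractions are a description with no test. The other 5 genes were chosen by family, as guidance receptors and a semaphorin. The cells came from bone marrow of C57BL/6 mice and formed 4 groups of 3 libraries: old (28 months) IL27RA+, old IL27RA-, young (2 months) IL27RA+ and young IL27RA-. IL27RA is the receptor subunit for the cytokine IL27, and no genetic change or treatment is named for any group. Each library was made from 50 sorted cells amplified together. The labels tie no library to an animal, so the p-values reflect the spread among libraries, part or all of which may be technical. In such pools, fewer cells with a transcript and less of it per cell cannot be told apart.

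Guidance receptors were first described on growing axons, which they steer toward or away from a cue, and many are also found on blood and endothelial cells. Neogenin, the product of Neo1, binds netrins and the repulsive guidance molecules (RGMs), which are also co-receptors for bone morphogenetic proteins, and it is related to the netrin receptor DCC. Robo receptors bind Slit ligands. Plexins bind semaphorins, some of them together with a neuropilin, and pass the signal on through small GTPases. In mouse bone marrow, Robo4 is known as a surface receptor of stem cells that helps hold them in the niche, and netrin-1 acting through neogenin has been described as a signal that keeps stem cells quiescent.

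In the GENCODE annotation of build GRCm38, Neo1 lies on chromosome 9 from 58874687 to 59036441 on the minus strand and Robo4 on chromosome 9 from 37401897 to 37415115 on the plus strand. Nrp1 lies on chromosome 8 (128358604 to 128503363, plus strand), Plxnc1 on chromosome 10 (94790866 to 94944835, minus strand), Plxnb2 on chromosome 15 (89155549 to 89180788, minus strand) and Sema4d on chromosome 13 (51685529 to 51793747, minus strand). None of the 6 has an exon that overlaps an exon of another protein-coding gene.

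The promoters of Neo1, whose level separated the sorted fractions, and Robo4, a receptor on the same chromosome whose level did not, are shown because they differ in base composition. Both are RefSeq sequences of build GRCm38.p6, from 250 bases before the RefSeq gene start to 50 after it (for Robo4 that start lies inside the GENCODE gene, not at its first base), written 5' to 3' on the gene's strand, with every CG pair in capitals. The Neo1 window is chr9:59036392-59036691 on the minus strand, and the Robo4 window is chr9:37401722-37402021 on the plus strand.
Neo1: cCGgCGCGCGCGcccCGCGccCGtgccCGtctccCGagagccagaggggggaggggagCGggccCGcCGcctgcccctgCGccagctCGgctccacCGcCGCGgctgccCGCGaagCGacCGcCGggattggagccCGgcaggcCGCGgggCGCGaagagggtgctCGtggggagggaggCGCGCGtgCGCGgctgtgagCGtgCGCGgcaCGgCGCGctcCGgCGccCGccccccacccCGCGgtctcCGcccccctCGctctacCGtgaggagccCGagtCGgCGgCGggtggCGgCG
Robo4: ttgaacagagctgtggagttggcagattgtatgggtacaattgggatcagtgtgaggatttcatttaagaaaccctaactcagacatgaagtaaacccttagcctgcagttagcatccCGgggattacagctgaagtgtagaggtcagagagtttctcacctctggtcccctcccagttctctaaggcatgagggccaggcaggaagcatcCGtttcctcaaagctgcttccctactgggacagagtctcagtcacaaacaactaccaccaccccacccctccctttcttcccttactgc
The Neo1 window held 54 CG pairs and 82.7% G or C, and 0.347% of 32851 mouse promoter windows of the same length held as many CG pairs or more. The Robo4 window held 2 CG pairs and 50.3% G or C, and 85.9% of windows held as many or more, around a median of 7. On both strands, GGGCGG, the core letters read by Sp1 and Klf factors, occurred 2 times in the Neo1 window and 0 times in that of Robo4. It was present in 35.7% of all windows. The ETS motif GGAAGT, a longer form of the core GGAA, was in neither window and in 23.8% of all windows. GGAA by itself was not searched. The GATA motif AGATAA was in neither and in 11.2% of all windows. The RUNX core TGTGGT was in neither and in 16.8% of all windows. No motif searched contains another, and a match or its absence describes the letters of the window alone.

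Libraries held 11.7 to 24.2 M reads in genes. Values are normalized counts, that is reads divided by a size factor of the library, and 3 reads correspond to between 1.93 and 3.77 of them. The sort could not be checked on the mRNA of the sorted receptor: Il27ra averaged 1294 ± 182 normalized counts (SD, n = 3) in old IL27RA+, 1379 ± 282 in old IL27RA-, 1088 ± 185 in young IL27RA+ and 1231 ± 457 in young IL27RA- libraries. Il27ra also overlaps exons of the oppositely oriented gene Palm3 in the GENCODE annotation, and reads of the pair could be mixed where strand was not used. All 10 stem cell markers were present in all 12 libraries, with Kit, the stem cell factor receptor, at 5791 to 10208 normalized counts. There were 2 libraries that stood apart. Young IL27RA- replicate 2 and old IL27RA- replicate 1 had the lowest weights in an alternative fit with library weights (0.434 and 0.542, where the others had 0.718 to 1.89). The main fit used no library weights. Old IL27RA- replicate 1 had Igkc, an antibody light chain gene, at 312300 normalized counts. The source label of old IL27RA- replicate 1 also calls it young, while its title and age say old.

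Neo1 was lower in every IL27RA+ library than in any IL27RA- library. It stood at 289, 300 and 462 normalized counts in old IL27RA+ libraries, against 882, 719 and 774 in old IL27RA- libraries. In young cells it stood at 97.8, 214 and 37.6 in IL27RA+ libraries, against 554, 741 and 1504 in IL27RA- libraries. Across both ages the 6 IL27RA+ libraries ran between 37.6 and 462 (median 251) and the 6 IL27RA- libraries between 554 and 1504 (median 757). Old group means were 350 ± 96.7 in IL27RA+ and 792 ± 82.9 in IL27RA- libraries, 2.26-fold lower in IL27RA+ cells (SD, n = 3 each). Young group means were 116 ± 89.5 in IL27RA+ and 933 ± 503 in IL27RA- libraries, 8.02-fold lower in IL27RA+ cells. On the log2 scale the difference, IL27RA+ minus IL27RA-, was -1.20 ± 0.58 (SE) in old cells and -3.19 ± 0.58 in young cells. Without both libraries that stood apart these differences were -1.12 in old and -3.29 in young cells. With single libraries left out they ran between -1.42 and -1.08 in old cells, and in young cells between -3.79 (without IL27RA+ replicate 2) and -2.55 (without IL27RA+ replicate 3). These are the values that chose the gene. The reads behind them numbered 1020 in the 3 old IL27RA+ libraries and 322 in the 3 young IL27RA+ libraries.

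The age values of Neo1 draw on the IL27RA+ levels that also entered its choice, so they too are given with no test. Averaged over both fractions, old minus young was 0.88 ± 0.41 (SE) on the log2 scale. Within IL27RA+ cells the old libraries were all above the young ones, by 1.87 ± 0.58 on the log2 scale and 3.01-fold by means. Within IL27RA- cells the ages overlapped, with a difference of -0.11 ± 0.58 (0.30 without young IL27RA- replicate 3). The age difference in IL27RA+ cells minus that in IL27RA- cells was 1.99 ± 0.82. Young IL27RA+ replicate 3, the lowest library with 30 reads, weighed on these values: without it the averaged age difference was 0.56 and that within IL27RA+ cells was 1.24.

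Markers of other cells also differed between the sorted fractions. Of 11 macrophage markers, 10 had a value, and their sum was 895 to 5201 normalized counts in old IL27RA+ and 256 to 1120 in old IL27RA- libraries. In young cells the sum was 2741 to 5060 in IL27RA+ and 444 to 579 in IL27RA- libraries. The complement genes C1qa and C1qb, which define tissue macrophages, averaged 925 and 609 in old IL27RA+ and 30.5 and 0.346 in old IL27RA- libraries, while Csf1r, the macrophage growth factor receptor, averaged 361 in old IL27RA+ and 375 in old IL27RA- libraries, and Marco had reads in 1 library. The sum of the 10 stem cell markers was 48460 to 53937 in old IL27RA+ and 65579 to 68722 in old IL27RA- libraries, and 50721 to 58173 in young IL27RA+ and 59439 to 69914 in young IL27RA- libraries. The part of either in the Neo1 difference was not tested. Over all genes tested, 3 of 14723 genes (0.0204%) passed the IL27RA comparison in young cells, 4 (0.0272%) in old cells and 28 (0.19%) averaged over ages. No count of the 6 genes is set against these shares, because Neo1 was chosen on that contrast.

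**Figure D1:**
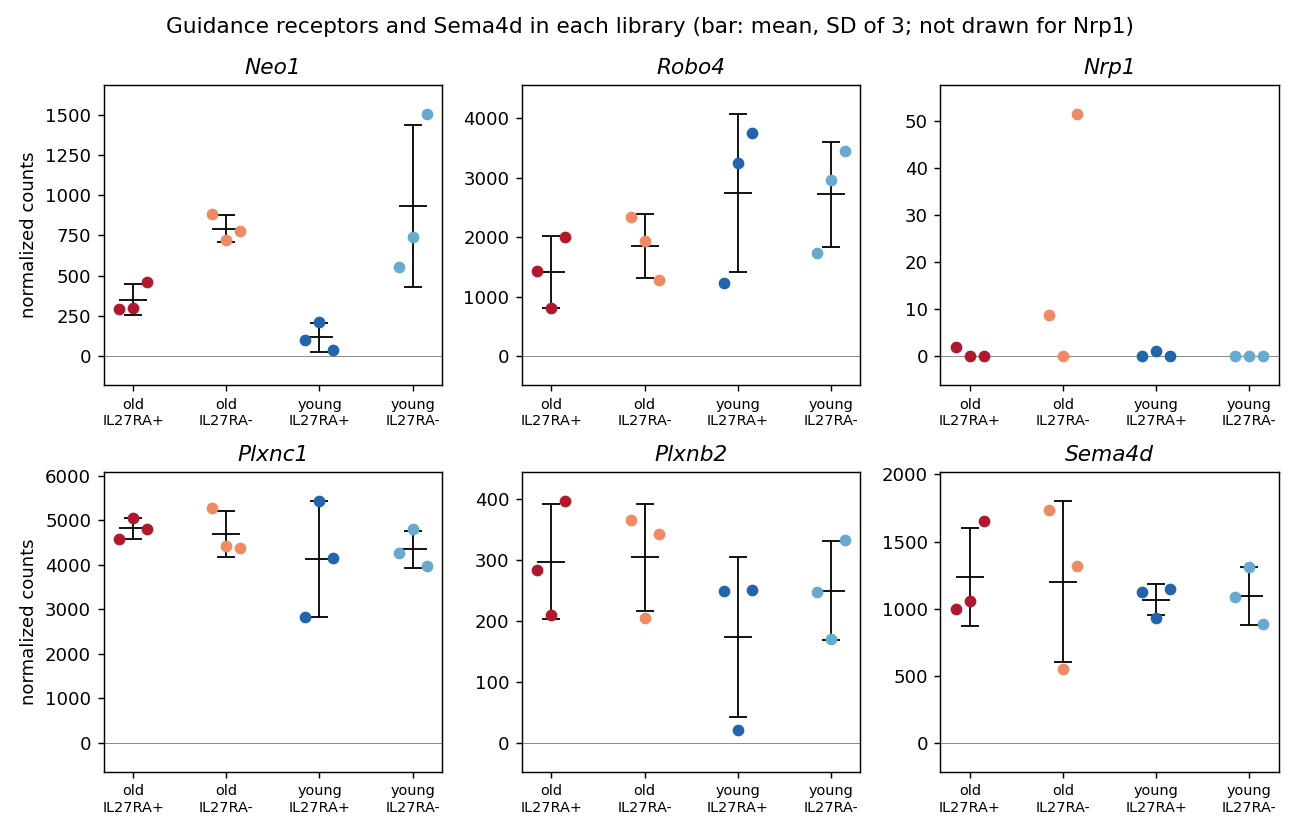
Normalized counts (y axis, linear, a separate scale for each gene) of Neo1, Robo4, Nrp1, Plxnc1, Plxnb2 and Sema4d in the 12 libraries, by group; points are libraries and bars are the mean and SD of 3, left out for Nrp1. Neo1 lies at 37.6 to 462 in IL27RA+ and 554 to 1504 in IL27RA- libraries, while the fractions overlap for the other genes.

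Of the ligands of neogenin, the netrins were low. Rgmb ranged from 18 to 530 normalized counts over the 12 libraries, against 37.6 to 1504 for Neo1 itself. Ntn1, the gene of netrin-1, had 4 reads in all 12 libraries together, which gave 0 to 0.924 normalized counts as group means. Ntn3 averaged 5.24 in old IL27RA+, 48.2 in old IL27RA-, 39.7 in young IL27RA+ and 41.5 in young IL27RA- libraries. Ntn4, a netrin of basement membranes, averaged 5.50, 4.69, 13.8 and 0.265 in the same groups. Rgmb, a repulsive guidance molecule, was the ligand with the highest level: 139, 333 and 381 in old IL27RA+, 85.7, 124 and 210 in old IL27RA-, 208, 27.3 and 530 in young IL27RA+, and 50.1, 210 and 18 in young IL27RA- libraries. Its groups overlapped, and old minus young, averaged over fractions, was 1.00 ± 0.77 (log2, adjusted p = 0.597 by limma). Of the other netrin receptors, Dcc had reads in 1 library (8 reads). Unc5a averaged 218 in old IL27RA+, 264 in old IL27RA-, 84.6 in young IL27RA+ and 94.5 in young IL27RA- libraries, with 1 library at 0 in each young group. Its age difference was 3.15 ± 1.35 (adjusted p = 0.291). Unc5a overlaps the oppositely oriented gene Hk3 in the GENCODE annotation, and reads of the pair could be mixed where strand was not used. In this list 4 of 15 genes passed the filter on low values, and 0 passed the age test, where 1.88% of all genes did. Neo1 is among the 4, and its own age value is given without a test.

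Robo4 was the member with the second highest level per length and the only one whose averaged age difference had a 95% interval below 0. It stood at 1434, 806 and 2006 normalized counts in old IL27RA+ libraries, against 1234, 3240 and 3753 in young IL27RA+ libraries. In IL27RA- cells it stood at 2343, 1939 and 1280 in old libraries, against 1741, 2970 and 3454 in young libraries. Old and young overlapped in both fractions. Averaged over fractions, old minus young was -0.72 ± 0.31 (SE) on the log2 scale, with a 95% interval of -1.38 to -0.06. The unadjusted p was 0.0345 and the adjusted p 0.289 by limma, so the difference did not pass the threshold. A two-sided exact permutation of the age labels within fractions gave p = 0.08 over 400 arrangements, the smallest possible being 0.005. The differences were -0.90 ± 0.44 in IL27RA+ cells (adjusted p = 0.589) and -0.54 ± 0.44 in IL27RA- cells (adjusted p = 0.647), and the difference between these 2 was -0.36 ± 0.62 (adjusted p = 0.969). Between the sorted fractions Robo4 differed by -0.44 ± 0.44 in old and -0.08 ± 0.44 in young cells, IL27RA+ minus IL27RA-, with overlapping libraries.

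Robo4 is also a gene of vascular endothelium. The sum of 8 endothelial markers, of 9 listed, was 2839 to 3707 in old IL27RA+, 6811 to 6944 in old IL27RA-, 1976 to 4027 in young IL27RA+ and 2908 to 3575 in young IL27RA- libraries, and its largest term was Cldn5 in old IL27RA- libraries (4798). Flt1 had reads in 2 of 12 libraries. The list had no common direction with age. Emcn averaged 735 in old IL27RA+ and 950 in old IL27RA- libraries, against 1963 and 1944 in the young ones. It was lower in old cells, as the Robo4 means were, and Pecam1 was slightly lower. Cldn5, Kdr and Flt4 were higher in old cells of both fractions. Cldn5 averaged 1888 in old IL27RA+ libraries, against 137 in young IL27RA+ and 532 in young IL27RA- libraries. Kdr averaged 143 and 336 in old IL27RA+ and IL27RA- libraries, against 58.6 and 39 in the young ones. The part of these genes in the Robo4 values was not tested. The other Robo genes were lower. Robo1 ranged from 0 to 250 and Robo3 from 1.43 to 74.7 normalized counts, and Robo2 had reads in 3 libraries. Slit2, a Robo ligand, averaged 37.5 in old IL27RA+, 44.7 in old IL27RA-, 105 in young IL27RA+ and 35.8 in young IL27RA- libraries. Of 10 Slit and Robo genes 7 passed the filter, and 0 passed the age test averaged over fractions, where 1.88% of all genes did.

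Plxnc1, the receptor of semaphorin 7A, had the highest level and the smallest relative spread of the 6 genes. It stood at 4581, 5056 and 4808 normalized counts in old IL27RA+ libraries, 5275, 4413 and 4365 in old IL27RA- libraries, 2822, 5426 and 4153 in young IL27RA+ libraries, and 4271, 4796 and 3980 in young IL27RA- libraries. All 4 groups overlapped, and the coefficient of variation over the 12 libraries was 15.4%. Old minus young, averaged over fractions, was 0.19 ± 0.16 on the log2 scale, with a 95% interval of -0.16 to 0.53 (adjusted p = 0.647 by limma, exact permutation p = 0.23). IL27RA+ minus IL27RA- was 0.04 ± 0.23 in old and -0.12 ± 0.23 in young cells. Its ligand gene Sema7a was far lower: 48.1, 3.83 and 12.9 in old IL27RA+, 109, 34.2 and 121 in old IL27RA-, 56.4, 17.0 and 35.1 in young IL27RA+, and 9.55, 0 and 0 in young IL27RA- libraries.

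Plxnb2, a plexin that binds class 4 semaphorins, stood at 284, 210 and 397 normalized counts in old IL27RA+ libraries, against 249, 21.6 and 250 in young IL27RA+ libraries. In IL27RA- cells it stood at 366, 204 and 342 in old libraries, against 247, 170 and 332 in young libraries. The groups overlapped, and 1 young IL27RA+ library, replicate 2, lay far below the rest with 19 reads. Old minus young, averaged over fractions, was 0.82 ± 0.58 on the log2 scale, with a 95% interval of -0.41 to 2.05 (adjusted p = 0.541 by limma, exact permutation p = 0.17). Without that library it was 0.25 (adjusted p = 0.851). IL27RA+ minus IL27RA- was -0.04 ± 0.81 in old and -1.11 ± 0.81 in young cells, and the young value was 0.05 without that library.

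Sema4d, a transmembrane semaphorin of lymphocytes that binds plexin B1, plexin B2 and CD72, stood at 996, 1055 and 1655 normalized counts in old IL27RA+ libraries, against 1126, 932 and 1145 in young IL27RA+ libraries. In IL27RA- cells it stood at 1736, 549 and 1321 in old libraries, against 1085, 1312 and 886 in young libraries. The groups overlapped, and the old IL27RA- group held both the highest and the lowest value. Old minus young, averaged over fractions, was 0.09 ± 0.27 on the log2 scale, with a 95% interval of -0.49 to 0.67 (adjusted p = 0.92 by limma, exact permutation p = 0.8). IL27RA+ minus IL27RA- was 0.15 ± 0.38 in old and -0.02 ± 0.38 in young cells. The highest value, 1736, was in old IL27RA- replicate 1, where the 4 B and plasma cell markers with a value, of 7 listed, summed to 373931 normalized counts. In the other 2 old IL27RA- libraries that sum was 1067 and 1448, and its part in the Sema4d value was not tested. Without that library the averaged age difference was -0.08. Plxnb1, the other plexin for this ligand, averaged 7.66 in old IL27RA+, 25 in old IL27RA-, 0.758 in young IL27RA+ and 0 in young IL27RA- libraries.

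Nrp1, a co-receptor of class 3 semaphorins and of VEGF, was not past the filter on low values, which asked for 10 normalized counts in 3 libraries, and was left out of the tests. Its reads were 2, 0 and 0 in old IL27RA+, 9, 0 and 41 in old IL27RA-, 0, 1 and 0 in young IL27RA+ and 0, 0 and 0 in young IL27RA- libraries, 53 in all. Reads in the old IL27RA- group came to 1.09 per M (exact Poisson 95% interval 0.806 to 1.43, counting error only), 41 of the 50 from replicate 3. For the young IL27RA- group, a count of 0 allows up to 0.0461 reads per M (3 reads of 65.1 M), and its exact Poisson 95% interval reached 0.0567. The related gene Nrp2 had 0, 0 and 0 normalized counts in old IL27RA+, 99.2, 134 and 42.7 in old IL27RA-, 67.7, 0 and 2.51 in young IL27RA+, and 0, 1.43 and 0 in young IL27RA- libraries. It was thus present in all 3 old IL27RA- libraries and listed at 0 in all 3 old IL27RA+ ones. Kdr, the VEGF receptor that works with neuropilins, was at 97.9, 125 and 206 in old IL27RA+, 349, 413 and 245 in old IL27RA-, 105, 69.3 and 1.25 in young IL27RA+, and 60.5, 56.5 and 0 in young IL27RA- libraries. Its age difference averaged over fractions was 3.43 ± 1.14 (log2, adjusted p = 0.16 by limma).

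Set against exon length, the members spanned a wide range of levels. Normalized counts per kilobase of exon over 12 libraries averaged 538 ± 82.7 (SD) for Plxnc1, 412 ± 183 for Robo4, 150 ± 42.5 for Sema4d, 62.9 ± 47.1 for Neo1, 33.2 ± 13.1 for Plxnb2 and 0.538 ± 1.51 for Nrp1. Every neighbouring pair in this order overlapped in its libraries. Plxnc1 (338 to 650) and Robo4 (152 to 708) did so widely, Robo4 and Sema4d (71.5 to 226) only at the edge. In young IL27RA+ cells, Neo1 at 13.3 per kilobase was below the Plxnb2 mean over all libraries, while in the other groups it averaged 40.2 (old IL27RA+), 90.8 (old IL27RA-) and 107 (young IL27RA-).

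Of the 6 genes, 5 passed the filter. Without Neo1, 0 of 4 passed the averaged age test at an adjusted p below 0.05 by limma, with 1 (Robo4) at an unadjusted p below 0.05 and 0 called by voom on recovered reads. Over all genes tested, 277 of 14723 genes, 1.88%, were called. The median difference of the 4 genes was 0.14, against 0.06 over all genes tested. Within IL27RA- cells 0 of the same 4 genes were called, none of them at an unadjusted p below 0.05 and 0 by voom, where 0.672% of all genes were called. Within IL27RA+ cells 0 of 4 were called, again with 0 at an unadjusted p below 0.05 and 0 by voom, where 0.421% of all genes were. In the comparison of the age difference between the fractions, none of the 4 was called by limma or voom, with 0 at an unadjusted p below 0.05. This does not show that the age differences were equal. Over all genes, 0 (0%) were called there by limma and 0 by voom, and 762 had an unadjusted p below 0.05.

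**Figure D2:**
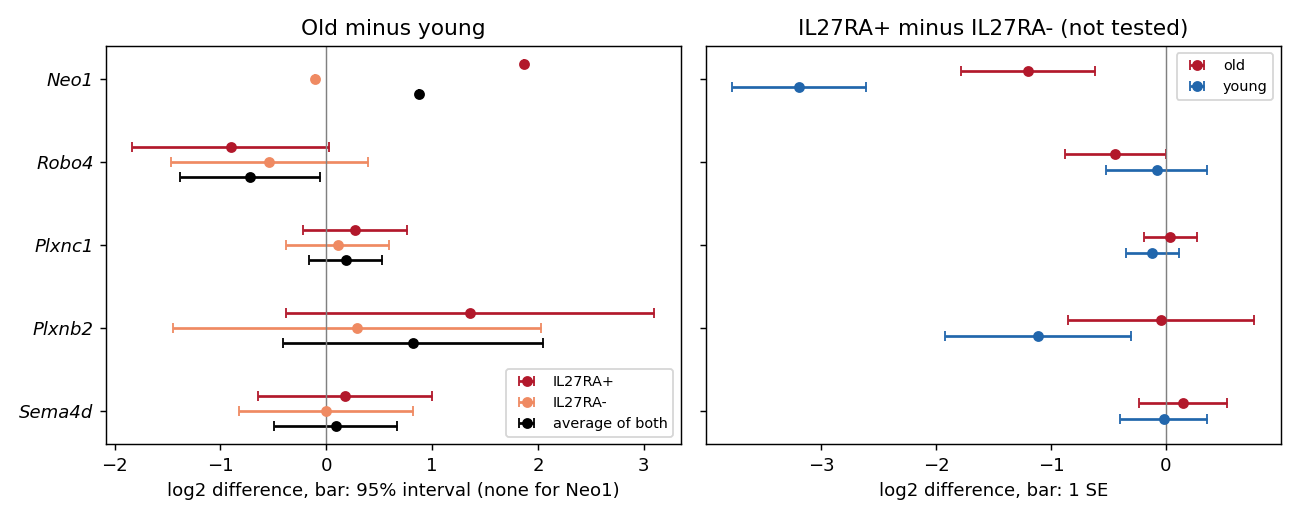
Log2 differences of the 5 genes past the filter. The left panel gives old minus young within IL27RA+ cells, within IL27RA- cells and averaged, with 95% intervals for all but Neo1, which is shown as values only; the right panel gives IL27RA+ minus IL27RA- within old and within young cells, with bars of 1 SE and no test. The averaged age interval of Robo4 is -1.38 to -0.06, and the IL27RA difference of Neo1 is -1.20 in old and -3.19 in young cells.

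A list of 113 axon guidance genes, members included, was read in the same fit. It was chosen with earlier results of these data known, so its shares are a description beside those of all genes. Of these 98 had a value and 72 passed the filter. Averaged over fractions, 2 rose and 2 fell with age (4 of 72, 5.56%, against 1.88% of all genes), 13 had an unadjusted p below 0.05 (18.1%, against 15.1% of all genes), and voom on recovered reads called 3. Of the 72 differences 44 were positive, with a median of 0.14, against 0.06 over all genes. Neo1 was counted in the 72 and in the 13, although its values share libraries with its choice. None of the 4 genes is among the 6 receptors and ligands above.

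Cd72, a receptor of Sema4d best known from B cells, rose with age averaged over fractions. It stood at 2777, 3728 and 2952 normalized counts in old IL27RA+ libraries, against 1423, 1174 and 1769 in young IL27RA+ libraries. In IL27RA- cells it stood at 2580, 2804 and 2920 in old libraries, against 920, 1646 and 1337 in young libraries. Each old library was above each young one. Old minus young was 1.12 ± 0.18 on the log2 scale (adjusted p = 0.0048 by limma, exact permutation p = 0.005, the smallest the design allows). Old IL27RA- replicate 1, the library rich in Igkc, had the lowest old value, and the difference was 1.15 without it (adjusted p = 0.0103 by limma). The B and plasma cell markers summed to 1149 to 1246 in old IL27RA+ and 682 to 1223 in young IL27RA+ libraries. In IL27RA- cells the sum was 1067 to 373931 in old and 705 to 1228 in young libraries. The part of such cells in the Cd72 values was not tested. Cd72 overlaps exons of the oppositely oriented gene Tesk1 at its end. Tesk1 averaged 404 in old IL27RA+, 450 in old IL27RA-, 357 in young IL27RA+ and 330 in young IL27RA- libraries, with an age difference of -0.03 ± 0.64 (adjusted p = 0.99).

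Cdc42, a small GTPase downstream of many guidance receptors and known for its activity in aged stem cells, also rose. It averaged 22618 ± 3103 in old IL27RA+ and 12505 ± 1710 in young IL27RA+ libraries, and 21408 ± 3982 in old IL27RA- and 12551 ± 3451 in young IL27RA- libraries (SD, n = 3 each). The difference was 0.82 ± 0.16 (adjusted p = 0.0175 by limma, exact permutation p = 0.005). No old library overlapped a young one in either fraction.

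Ablim1, an actin-binding LIM protein whose relatives act downstream of netrin receptors in worms, fell with age. It stood at 660, 240 and 244 in old IL27RA+ libraries, against 2443, 1260 and 454 in young IL27RA+ libraries. In IL27RA- cells it stood at 638, 689 and 880 in old libraries, against 2545, 1732 and 2218 in young libraries. The ages separated in IL27RA- cells and overlapped in IL27RA+ cells. The difference was -1.64 ± 0.37 (adjusted p = 0.0362 by limma, exact permutation p = 0.01).

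Plxna2, a plexin that works with neuropilins for class 3 and alone for class 6 semaphorins, fell with age. It stood at 4.62, 2.87 and 0 in old IL27RA+ libraries, against 175, 48.9 and 23.8 in young IL27RA+ libraries. In IL27RA- cells it stood at 23.1, 13.5 and 1.26 in old libraries, against 170, 47.9 and 379 in young libraries. No old library overlapped a young one of its fraction. The difference was -4.21 ± 0.98 (adjusted p = 0.0401 by limma, exact permutation p = 0.005) and depends on the pseudocount, being -2.75 with a pseudocount of 10.

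Of these 4 calls, that of Cd72 held in all 22 alternatives tried, with adjusted p of 0.00172 to 0.0373. Cdc42 lost it in 5 (0.00761 to 0.118), Ablim1 in 13 (0.00506 to 0.125) and Plxna2 in 12 (0.0239 to 0.104). The count of 4 depended on single libraries. It was 1 without old IL27RA+ replicate 3, old IL27RA- replicate 2, old IL27RA- replicate 3 or young IL27RA+ replicate 2. It was 2 without old IL27RA+ replicate 2, young IL27RA+ replicate 1, young IL27RA- replicate 1 or young IL27RA- replicate 3. The summed granulocyte markers differed with age too, at 7794 to 10648 in old IL27RA+ and 4066 to 5484 in young IL27RA+ libraries, and 9052 to 13163 in old IL27RA- and 3646 to 4436 in young IL27RA- libraries. Most of it was Prtn3, while Elane had reads in 1 library and Mpo in 3. The other markers of the list had no common direction in IL27RA+ cells. S100a8 averaged 28.3 in old and 60.5 in young libraries, S100a9 45 and 106, Ngp 49.3 and 90.1, and Mpo 0 and 69.1. Ltf (18.2 in old, 0.627 in young) and Camp (7.42 and 3.53) were higher in old IL27RA+ libraries, as Prtn3 was. In IL27RA- cells Ltf averaged 18.4 in old and 0 in young libraries, and Ngp 1.26 and 0. There S100a8 averaged 9.13 in old and 10.6 in young libraries, S100a9 4.12 and 13.5, and Camp 3.26 and 4.62. The part of these genes in the guidance gene differences was not tested.

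**Figure D3:**
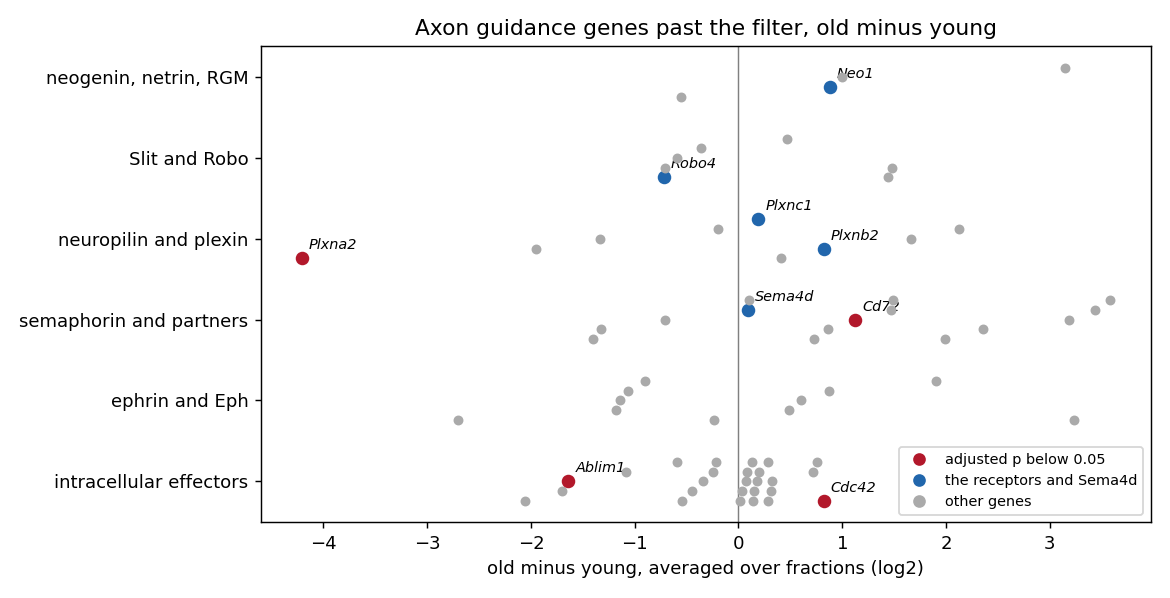
Log2 difference, old minus young averaged over fractions (x axis), of the 72 axon guidance genes past the filter, in rows by family; each point is a gene, and vertical offsets within a row have no meaning. Cd72 (1.12) and Cdc42 (0.82) rose and Ablim1 (-1.64) and Plxna2 (-4.21) fell, while Robo4, Plxnc1, Plxnb2 and Sema4d did not pass.

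Within single fractions 0 of 71 guidance genes passed the age test, where 0.672% of all genes did in IL27RA- and 0.421% in IL27RA+ cells, and 0 passed by voom in either. At an unadjusted p below 0.05 there were 12 (16.9%, against 12.5% of all genes) in IL27RA- cells and 7 (9.86%, against 8.89%) in IL27RA+ cells. The smallest p values in IL27RA+ cells were those of Cd72 (1.12 ± 0.26, adjusted p = 0.0919), Cdc42 (0.86 ± 0.23, adjusted p = 0.174) and Ablim1 (-1.72 ± 0.53, adjusted p = 0.276) by limma. In IL27RA- cells they were those of Cd72 (1.13 ± 0.26, adjusted p = 0.0683), Nrp2 (5.96 ± 1.55, adjusted p = 0.111) and Sema7a (5.15 ± 1.38, adjusted p = 0.122). Fitted differences of genes with a group at or near 0, such as Nrp2 and Sema7a, depend on the pseudocount and are no bounds. In IL27RA- cells the count was 2 without young IL27RA- replicate 1 (Srgap2 and Sema7a) and 1 without young IL27RA- replicate 2 (Cd72).

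Between the sorted fractions 0 of 67 guidance genes other than the 6 passed in any of the 3 comparisons by limma or voom. At an unadjusted p below 0.05 there were 8 averaged over ages (11.9%, against 7.97% of all genes), 5 in old cells (7.46%, against 5.38%) and 9 in young cells (13.4%, against 8.21%). The shares of all genes called are those given with Neo1. Averaged over ages, the smallest p values were those of Farp1, an exchange factor downstream of plexins (-4.06 ± 1.08, adjusted p = 0.212), Ephb4, a receptor of ephrin-B2 (-1.13 ± 0.34, adjusted p = 0.302), and Efna4, an ephrin ligand (3.76 ± 1.18, adjusted p = 0.339) by limma. In old cells they were those of Nrp2 (-6.39 ± 1.55, adjusted p = 0.219), Efnb2, the gene of ephrin-B2 (-3.40 ± 1.30, adjusted p = 0.747), and Srgap2, which acts downstream of Robo receptors (1.23 ± 0.52, adjusted p = 0.868). In young cells they were those of Farp1 (-4.78 ± 1.53, adjusted p = 0.409), Ephb4 (-1.37 ± 0.47, adjusted p = 0.453) and Sema7a (3.93 ± 1.38, adjusted p = 0.456). Ephb4 stood at 177, 187 and 111 normalized counts in old IL27RA+, 248, 312 and 306 in old IL27RA-, 431, 205 and 297 in young IL27RA+, and 824, 547 and 1001 in young IL27RA- libraries, so that the fractions did not overlap at either age. In the annotation Ephb4 overlaps the oppositely oriented gene Zan, and Efna4 an antisense gene.

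Genes whose pattern over the 12 libraries was like that of Neo1 were found by the root mean square difference of log2 values, each gene centred on its own mean. Among the 5 with the smallest difference were Fkbp10 (0.71), Gm4673 (0.72), Ng23 (0.73) and Ube2o (0.81), where 1% of 14722 genes lay at or below 1.11 and the median was 1.64. This is a description over libraries that share their groups and normalization. Fkbp10 encodes a prolyl isomerase of collagen folding and Ube2o a ubiquitin-conjugating enzyme. In the annotation Fkbp10 overlaps the oppositely oriented gene Nt5c3b, and Ng23 the oppositely oriented gene Vwa7. Fkbp10 ranged from 12.5 to 624 and Ube2o from 40.1 to 477 normalized counts, and both had their lowest value in young IL27RA+ replicate 3, as Neo1 did.

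**Figure D4:**
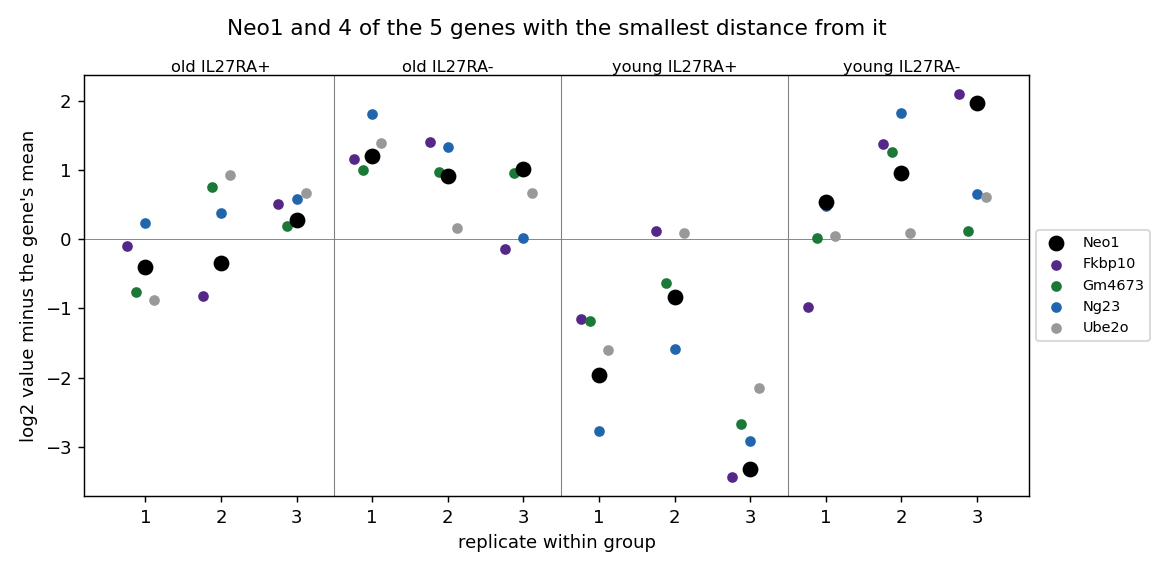
Log2 value minus the gene's mean over the 12 libraries (y axis) for Neo1 and 4 of the 5 genes with the smallest root mean square difference from it, by library (x axis, replicates within group, which have no order). Fkbp10 (0.71), Gm4673 (0.72), Ng23 (0.73) and Ube2o (0.81) have low points in young IL27RA+ replicate 3, as Neo1 does.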

How the data were processed

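Expression was measured by Smart-Seq2 RNA sequencing, which amplifies full-length cDNA and tags no molecules, in 12 libraries. The submitters' processing notes name FastQC 0.11.5, TopHat2 2.1.1, HTSeq and DESeq2; genome build and strand setting: not given in the sources used here. The deposited table holds log2 values. Judged by their steps, each is the log2 of 1 plus a size-factor-scaled read count, and 100% of them gave whole reads within 0.001 reads. One damaged line, which put a value of another kind in 1 deposited column, and 15 repeated lines were left out, and 21 gene names turned into dates were restored.

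The members and lists were chosen with earlier results of these data known. A linear model with a variance trend (limma 3.58.1, R 4.3.3) took the deposited values of the 12 libraries, with a mean for each group (8 residual and 6.62 prior degrees of freedom). Tests covered 14723 genes that reached 10 normalized counts in at least 3 libraries, with Benjamini-Hochberg adjustment and a threshold of 0.05. Differences are given as log2(normalized count + 1). The added 1 shrinks changes of low genes, while single libraries at or near 0 can make a difference larger than that of the group means. For Unc5a in IL27RA+ cells, old minus young was 3.08 on the log2 scale, against 2.58-fold by means. The fit was tested on data simulated for the averaged age comparison, with 200 of 14723 genes changed. The changed genes were taken from those with reads in all 12 libraries. It recovered 76% of 4-fold and 100% of 16-fold changes, with 6 false calls. Smaller changes were not simulated. Exon lengths and overlaps are from GENCODE (GRCm38) and promoters from RefSeq, which had 1 for 6 of 6 members. Named guidance genes were all those called, up to 6 in each direction, otherwise the 3 with the smallest p. The 95% intervals of differences rest on the spread among libraries. The Poisson interval and the floors cover counting error only, since amplified reads are not independent molecules. Alternatives were other filters, pseudocounts and scalings, library weights, no variance trend, a replicate block, voom on recovered reads and leaving out libraries. Replicate numbers were not used to pair the samples in the main fit, since no label says that they pair them. Of the 5 genes nearest to Neo1, 1 is not reported here. The design counted Neo1 in the averaged age comparison; its values there share libraries with its choice and are given without a test.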

Additional observations from a re-analysis of the deposited data

How the results depend on the processing

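No alternative called any of the 5 genes other than Neo1 that it tested in an age comparison (22 or 23 alternatives for each count). Neo1, whose age values are given without a test, is left out of this statement. The number of guidance genes called for age averaged over fractions, 4, was 2 with no filter and 2 with no variance trend, and ran between 1 and 3 with 1 library left out. Of counts that were 0, the age count in IL27RA- cells ran between 0 and 2 with 1 library left out, that in IL27RA+ cells was 1 with library weights (Cd72) and 1 without both least weighted libraries (Cdc42), and that for IL27RA in old cells was 1 with library weights (Nrp2). Leaving out both least weighted libraries was chosen after seeing the data.

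Among tested differences of the 6 genes, directions turned for some that did not pass, on the log2 scale. Without both least weighted libraries, old minus young was -0.11 for Plxnb2 in IL27RA- cells and -0.01 for Sema4d averaged. Sema4d in IL27RA- cells (-0.00) was 0.00 with a pseudocount of 10, 0.06 with equal medians and 0.01 with voom, and ran between -0.34 and 0.49 with 1 library left out. With 1 library left out, Sema4d averaged ran between -0.08 and 0.33 and in IL27RA+ cells between -0.05 and 0.31. The difference of the age differences ran between -0.31 and 0.52 for Sema4d, -0.09 and 1.65 for Plxnb2 and -0.09 and 0.39 for Plxnc1. With all 12 libraries that of Plxnb2 was 1.07 ± 1.15 (SE), so a large estimate turned too. The cause was not tested, apart from the loss of a library.

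Same-numbered libraries had low correlations of their deviations: 1 of 18 pairs was above 0.1, and they ran between -0.0539 and 0.107. Many of these pairs join old with young libraries, which cannot share an animal. Between the fractions of one age they were 0.0314, 0.00377 and 0.0953 in old and 0.107, 0.027 and 0.0155 in young cells. These values cannot tell whether the fractions were sorted from the same animals. With the replicate block the count of guidance genes was 4 for age averaged over fractions and 0 in the other comparisons. Nrp1, with reads in 4 of 12 libraries, entered the fit only with no filter, where it was not called.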
